A study of Mus musculus with 9 samples.

Results

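The 44 genes described here encode proteins that carry a cell through mitosis, and they were taken as a fixed list of gene symbols. The list uses no measured value, but its members were chosen with earlier results of these data known. All 44 were found on the array by symbol, with 63 of its 55666 probes (34733 gene names). They fall into 8 roles: the mitotic cyclins and their kinase (Ccnb1, Ccnb2, Ccna2, Cdk1), other mitotic kinases (Aurka, Plk1, Nek2, Pbk, Melk), the spindle checkpoint and the anaphase-promoting complex (Bub1, Bub1b, Ttk, Mad2l1, Cdc20, Ube2c, Cdca3), kinetochore and centromere proteins (Cenpa, Cenpe, Cenpf, Ndc80, Nuf2, Spc24, Spc25), the chromosomal passenger complex (Aurkb, Birc5, Cdca8), spindle motors and spindle proteins (Kif11, Kif2c, Kif4, Tpx2, Nusap1, Dlgap5, Hmmr), cytokinesis proteins (Kif20a, Kif23, Prc1, Ect2, Racgap1, Anln), and proteins of chromosome structure (Top2a, Mki67, Ncaph, Ncapg, Smc2).

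Total RNA from 9 mouse samples was measured on 9 one-colour Agilent arrays. There were 3 arrays of brain tumour tissue from MADM mice with EZH2 knocked out, 2 of glioma cells from brain tumours of MADM mice, 2 of wild type C57BL/6J brain astrocytes and 2 of wild type C57BL/6J brain neural stem cells. MADM, mosaic analysis with double markers, is a mouse system in which recombination between chromosomes creates sparse, labelled mutant cells beside normal ones. The labels name neither the tumour-driving alleles nor the Cre driver, give no age, passage or culture condition, and list no genotype at the EZH2 locus for the glioma cells. No tumour tissue with intact EZH2 was among the samples, so the knockout and the difference between tissue and cultured or isolated cells cannot be told apart. The labels do not say whether arrays of 1 group came from separate animals or cultures, so p-values reflect only the variation among these 9 samples and part of it may be technical.

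Mitotic genes are transcribed in a wave that starts in late S phase and peaks in G2 and mitosis, and their messages are largely absent from resting cells. Cyclin B and Cdk1 start mitosis, Plk1 and the Aurora kinases build the spindle, the checkpoint holds chromosomes until every kinetochore is attached, and the anaphase-promoting complex with Cdc20 and Ube2c then destroys cyclin B. Many of these promoters carry a CHR element downstream of NF-Y boxes, through which the DREAM complex represses them in resting cells and the B-MYB and FOXM1 proteins activate them later. In the brain, neural stem cells, glial precursors and glioma cells divide, whereas mature astrocytes and neurons mostly rest.

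The promoters of the list are shown because they are the most direct sequence feature the genes share. RefSeq promoter windows of 300 bases (250 before and 50 after the start, assembly GRCm38.p6) matched 37 of the 44 genes. They were searched on both strands for TTTGAA (the CHR element) and CCAAT (the NF-Y box), which can share at most 1 base. The CHR letters were in the windows of 27 of the 37 genes (73.0%), against 20.2% of 27025 mouse genes with such a window. The NF-Y box was in 28 of 37 (75.7%), against 41.1%, and both were in 24 of 37 (64.9%), against 8.97%. The median GC content of the windows was 58.7% for the list and 52.8% for all genes. Each stretch below gives the 120 bases before the start, 5′ to 3′ on the gene's strand, with CHR and NF-Y matches on either strand in capitals. Of the genes with CHR letters, not all hold them in such a stretch: 12 of the 37 genes (32.4%, against 18.4% of all genes) had one before the start, and 15 had one only after it. In 8 genes (21.6%, against 3.44% of all genes) a CHR match lay between an NF-Y match and the start. Of those 8, 6 were picked for display because they show both motifs together. Ccnb1 was added as a promoter with NF-Y boxes and no TTTGAA, so the stretches are not typical of the list. Only TTTGAA was searched, so a CHR element spelled otherwise would be missed, in Ccnb1 as in any other gene.
Cdk1 (chr10:69352913-69353032, minus strand): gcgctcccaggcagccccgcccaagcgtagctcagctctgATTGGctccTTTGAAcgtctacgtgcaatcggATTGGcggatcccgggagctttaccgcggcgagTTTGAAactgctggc
Ccnb1 (chr13:100786487-100786606, minus strand): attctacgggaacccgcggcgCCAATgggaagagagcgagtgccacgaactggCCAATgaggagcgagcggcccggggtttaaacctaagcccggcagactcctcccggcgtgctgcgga
Cdc20 (chr4:118437344-118437463, minus strand): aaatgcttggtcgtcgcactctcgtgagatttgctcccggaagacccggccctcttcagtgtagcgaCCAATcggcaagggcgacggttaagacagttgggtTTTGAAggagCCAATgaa
Ube2c (chr2:164769809-164769928, plus strand): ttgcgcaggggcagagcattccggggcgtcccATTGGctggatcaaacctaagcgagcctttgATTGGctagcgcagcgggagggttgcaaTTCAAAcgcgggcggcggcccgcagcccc
Kif11 (chr19:37376262-37376381, plus strand): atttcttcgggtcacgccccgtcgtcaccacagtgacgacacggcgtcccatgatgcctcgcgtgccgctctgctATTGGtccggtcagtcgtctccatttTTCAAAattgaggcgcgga
Prc1 (chr7:80294356-80294475, plus strand): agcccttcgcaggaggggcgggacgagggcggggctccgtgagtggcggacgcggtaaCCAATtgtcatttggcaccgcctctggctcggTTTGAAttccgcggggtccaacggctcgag
Top2a (chr11:99024190-99024309, minus strand): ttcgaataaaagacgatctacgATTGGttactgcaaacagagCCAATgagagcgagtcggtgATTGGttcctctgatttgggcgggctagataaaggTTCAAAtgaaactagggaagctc
Mki67 and Ncapg are the other genes with that arrangement. A match is a description of the letters and not evidence of binding.

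**Figure D1:**
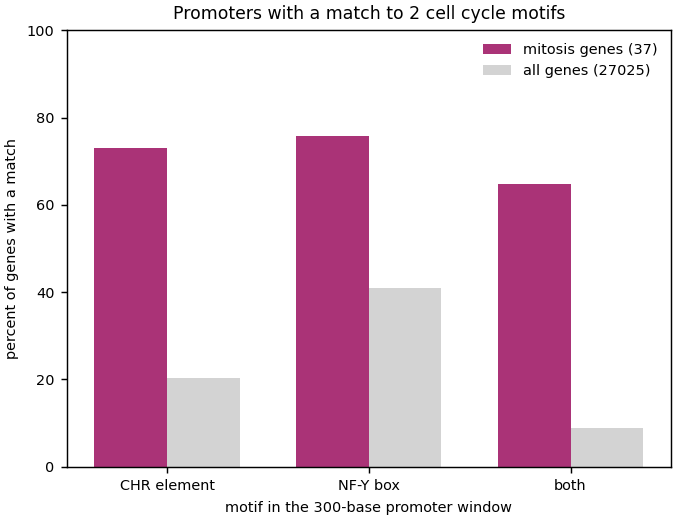
Percent of genes whose 300-base promoter window holds the CHR letters, the NF-Y box or both, on either strand, for 37 mitosis genes (purple) and 27025 mouse genes (grey). Both together were in 64.9% of the mitosis genes and 8.97% of all genes.

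Facts of the whole series that bear on the list are as follows. Levels are log2 processed intensities minus the array's 75th percentile, so a level of 0 means the signal at that percentile. They compare arrays for 1 probe and say nothing of 1 gene against another. Spots well above background made up 60.1% to 65.7% of an array, and none was saturated. The tissue arrays lay on their own slide and scan and the 6 cell arrays on another, so slide and material cannot be told apart in any comparison with tissue, while the comparisons among cells lie within 1 slide. Ezh2, the targeted gene, read 1.70, 1.40 and 1.30 in tissue, 2.87 and 3.08 in glioma cells, -0.00 and -0.78 in astrocytes and 1.98 and 3.21 in neural stem cells. The sources do not say whether its probe (chr6:47480307-47480366, mm9) lies in the deleted part, so these values neither check nor contradict the labels. Marker genes set several arrays apart. Mean levels of 8 astrocyte markers were 5.04 and 3.42 in astrocytes, 2.49 to 3.44 in tissue and -0.18 and -0.58 in glioma cells. Mean levels of 10 microglia and macrophage markers were 3.49 and 3.74 in astrocytes, where all 10 were well above background, 3.16 to 4.30 in tissue, -4.35 and -4.16 in glioma cells, and -0.18 and -2.19 in neural stem cells. The summed microglia signal, in units of the 75th percentile, was 174 and 197 in astrocytes, 141 to 310 in tissue, 18.8 to 29.0 in glioma cells and 24.4 to 38.3 in neural stem cells. Astrocyte array 2 also carried fibroblast and smooth muscle markers at a mean of 5.62, against 0.80 on array 1. Oligodendrocyte precursor markers averaged 4.79 to 5.55 in tissue, 5.11 to 5.51 in glioma cells, 4.60 and 3.60 in neural stem cells, and -1.06 and -1.67 in astrocytes. The part of these cells in the results was not tested. The scaling to the 75th percentile also bears on the direction of calls over all genes. Of all called genes 50.3% were higher in glioma cells than astrocytes, 48.0% in neural stem cells than astrocytes, 43.3% in tissue than glioma cells and 42.6% in tissue than neural stem cells. In the authors' table, which is not scaled this way, the shares were 30.1%, 24.3%, 79.6% and 77.7%.

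The mitosis genes moved as a block across the 9 arrays. Their median level was -1.35 and -0.43 on the astrocyte arrays, 0.90, 1.23 and 0.95 on the tissue arrays, 0.58 and 3.45 for the neural stem cells, and 3.18 and 3.10 for the glioma cells, while the median of all genes tested stayed between -0.89 and -0.73. An astrocyte array was the lowest of the 9 for 43 of the 44 genes, array 1 in 41 of them. Both glioma cell arrays and neural stem cell array 2 stood above the other 6 arrays for 43 genes, and neural stem cell array 2 was the highest of all for 32. All 3 tissue arrays lay between the astrocytes and the glioma cells for 40 genes. The neural stem cell arrays stood apart, with array 1 below all tissue arrays for 32 genes and array 2 above both glioma cell arrays for 32 genes. In bulk RNA, fewer cycling cells and less message per cycling cell cannot be told apart.

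**Figure D2:**
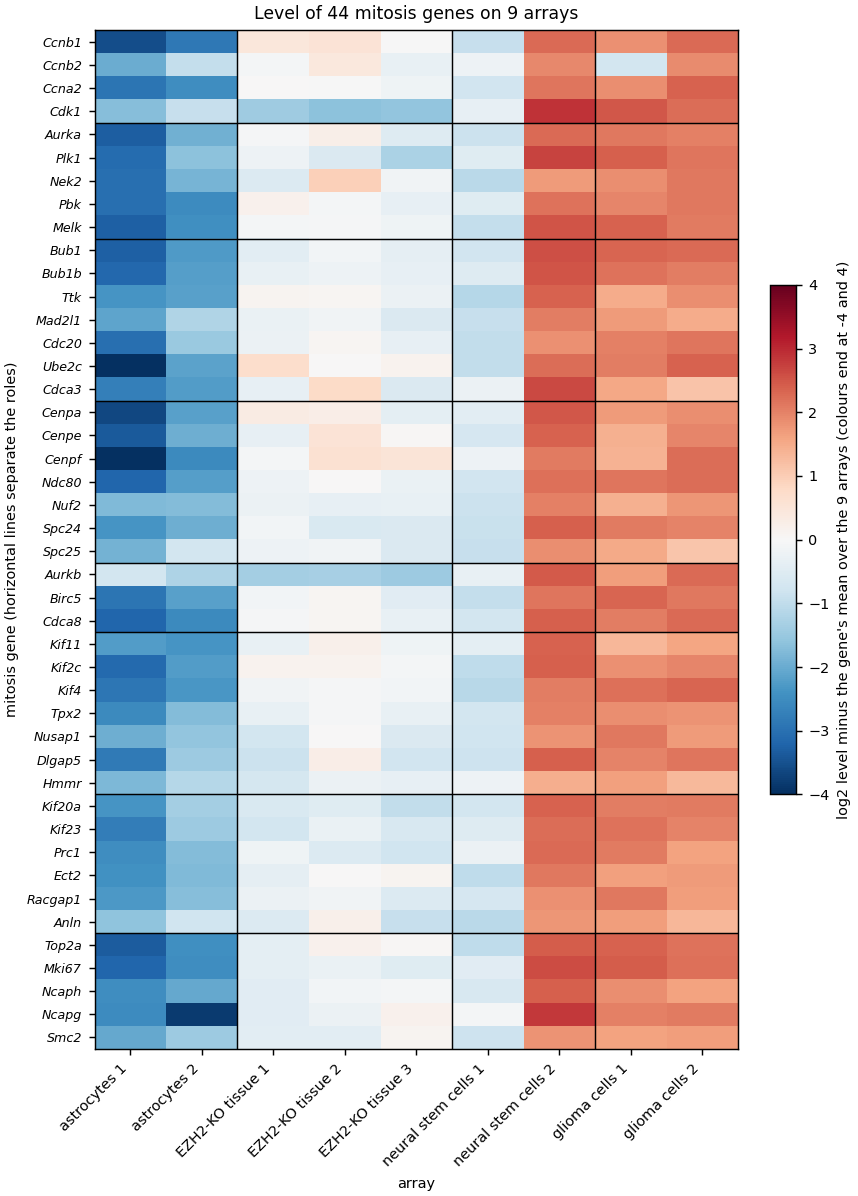
Level of each of the 44 mitosis genes (rows, by role) on each of the 9 arrays (columns), as the log2 level minus that gene's own mean over the arrays; red is above and blue below that mean. Both astrocyte arrays are below the other 7 for 40 genes, neural stem cell array 2 is above both glioma cell arrays for 32, and array 1 is below all tissue arrays for 32.

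Glioma cells were compared with astrocytes to ask which mitosis genes were higher in the tumour cells than in normal glia. All 44 stood higher, with no overlap between the arrays of the groups, and 32 passed the test (limma, adjusted p under 0.05 over 24868 genes, and at least 2-fold). Of all genes tested, 9.82% were called higher and 41.2% had no overlap in that direction. The median difference of the list was 4.27 on the log2 scale, a 19.4-fold higher level, against 0.19 for all genes. It ranged from 2.05 for Ccnb2 to 5.46 for Ube2c, with a median standard error of 1.01. The count depended on which arrays gave the estimate of spread. Without either neural stem cell array 43 genes were called, and without any 1 of the glioma cell or astrocyte arrays none was called by limma, with 32 to 40 genes at an unadjusted p under 0.05 and a median between 3.83 and 4.86. Of the 10 microglia markers, 9 were called lower in the glioma cells, where 9.70% of all genes were. The part of these markers in the result was not tested.

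Of the 3 cyclins and their kinase, 2 genes rose. In every list of values below, arrays of a group are given in the order of their numbers. Ccna2, cyclin A2, which acts from S phase into early mitosis, read -0.38 and 0.08 in astrocytes, 4.42 and 4.93 in glioma cells, 1.78 and 4.69 in neural stem cells and 2.57, 2.54 and 2.39 in tissue. Ccnb1, cyclin B1, the main partner of Cdk1, read -1.18 and -0.48 in astrocytes, 4.20 and 4.64 in glioma cells, 1.45 and 4.64 in neural stem cells and 2.82, 2.91 and 2.35 in tissue. For both cyclins the 4 groups were ordered astrocytes, tissue, glioma cells, with 1 neural stem cell array below the tissue and the other among the glioma cells. Glioma cells exceeded astrocytes by 4.82 ± 0.95 (SE, log2) for Ccna2 (adjusted p = 0.0275) and by 5.25 ± 1.04 for Ccnb1 (adjusted p = 0.0277). Ccnb2, cyclin B2, behaved differently because 1 glioma array was low: it read 0.10 and 1.14 in astrocytes, 1.35 and 3.98 in glioma cells, 1.88 and 4.02 in neural stem cells and 2.02, 2.53 and 1.80 in tissue. It was the only member that differed by more than 2-fold between the glioma cell arrays, and its difference of 2.05 ± 1.12 did not pass (adjusted p = 0.238). Cdk1, the kinase itself, read -1.13 and -0.35 in astrocytes, 3.05 and 2.78 in glioma cells, 0.22 and 3.46 in neural stem cells and -0.87, -1.09 and -1.03 in tissue. Its tissue values lay within the range of the astrocyte values, unlike those of its cyclins. The difference between glioma cells and astrocytes was 3.66 ± 1.06 for Cdk1 (adjusted p = 0.0664).

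All 5 other mitotic kinases rose in glioma cells over astrocytes, by 4.43 (Nek2, a centrosome kinase) to 5.10 (Melk, a kinase abundant in neural progenitors). Plk1, which drives centrosome maturation and mitotic entry, read -0.38 and 1.07 in astrocytes, 5.09 and 4.85 in glioma cells, 2.23 and 5.42 in neural stem cells and 2.51, 2.14 and 1.44 in tissue. Aurka, the spindle pole kinase, read -1.16 and 0.23 in astrocytes, 4.25 and 4.16 in glioma cells, 1.26 and 4.42 in neural stem cells and 2.11, 2.36 and 1.63 in tissue. The glioma cell arrays lay close together for both kinases, whereas their astrocyte arrays lay more than 1 unit apart. The differences were 4.63 ± 1.11 for Plk1 (adjusted p = 0.0439), 4.67 ± 1.09 for Aurka (adjusted p = 0.0410) and, with the smallest adjusted p of the role, 4.78 ± 0.87 for Pbk (adjusted p = 0.0226).

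Of 7 checkpoint and anaphase-promoting complex genes, 5 rose. Cdc20, the activator that turns the complex on at anaphase, read 0.56 and 2.10 in astrocytes, 5.62 and 5.75 in glioma cells, 2.62 and 5.41 in neural stem cells and 3.35, 3.66 and 3.27 in tissue. Ube2c, the E2 enzyme that supplies ubiquitin to it, read -1.78 and 0.45 in astrocytes, 4.64 and 4.95 in glioma cells, 1.63 and 4.85 in neural stem cells and 3.31, 2.62 and 2.73 in tissue. Ube2c had the widest gap between the astrocyte arrays of any member, 2.23, and still the largest glioma difference, 5.46 ± 1.23 (adjusted p = 0.0384), against 4.35 ± 1.01 for Cdc20 (adjusted p = 0.0408). Mad2l1, which carries the checkpoint signal, and Ttk, the kinase that starts it, were not called. Mad2l1 read -0.45 and 0.46 in astrocytes, 3.37 and 3.15 in glioma cells, 0.76 and 3.71 in neural stem cells and 1.41, 1.52 and 1.10 in tissue, a difference of 3.26 ± 0.98 between glioma cells and astrocytes (adjusted p = 0.0733). Ttk read -5.76 and -5.56 in astrocytes, where it was not well above background, -1.91 and -1.55 in glioma cells, -4.54 and -1.06 in neural stem cells and -3.30, -3.33 and -3.63 in tissue. The fitted difference between glioma cells and astrocytes was 3.93 ± 1.11 for Ttk (limma, adjusted p = 0.0628), or 15.3-fold, and no lower bound is given. For other genes dim in 1 group, a fold is given below as a bound. Such a bound sets the mean of the brighter group against the lowest signal that counted as well above background on the dim arrays. The probe's own signal was taken where that was higher. A bound holds for the group mean and not for each array, and it leaves out the standard error.

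Kinetochore and centromere genes gave 5 calls of 7. Spc25, a subunit of the NDC80 complex that grips microtubules, read 1.65 and 2.81 in astrocytes, 5.07 and 4.67 in glioma cells, 2.65 and 5.40 in neural stem cells and 3.36, 3.41 and 2.99 in tissue. Cenpe, the kinetochore motor that aligns chromosomes, read -0.82 and 0.59 in astrocytes, 3.98 and 4.49 in glioma cells, 1.86 and 4.90 in neural stem cells and 2.21, 3.08 and 2.60 in tissue. Nuf2, another NDC80 subunit, read -2.02 and -2.0 in astrocytes, 1.15 and 1.51 in glioma cells, -1.12 and 1.74 in neural stem cells and -0.50, -0.59 and -0.56 in tissue. The groups were ordered alike in all 3 genes, but the distance from astrocytes was smallest for Spc25, whose astrocyte values were themselves above the 75th percentile. Cenpe passed with 4.35 ± 1.07 (adjusted p = 0.0469), while Spc25 (2.64 ± 0.96, adjusted p = 0.109) and Nuf2 (3.34 ± 0.92, adjusted p = 0.0601) did not. Of the other NDC80 subunits, Ndc80 itself rose by 4.87 ± 0.99 (adjusted p = 0.0291), and Spc24 was also called, with a difference of 4.19. Cenpf, a matrix protein that moves to kinetochores in G2, was not well above background in astrocytes and read -7.78 and -6.34 there, -2.40 and -1.54 in glioma cells, -3.99 and -1.70 in neural stem cells and -3.86, -3.17 and -3.28 in tissue. Its glioma level was at least 14.0-fold above astrocytes (5.09 ± 0.91, adjusted p = 0.0215, the smallest of the list).

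In the chromosomal passenger complex, which corrects faulty attachments, 2 of 3 genes rose. Birc5, survivin, read 1.07 and 1.83 in astrocytes, 6.34 and 6.11 in glioma cells, 3.04 and 6.14 in neural stem cells and 3.89, 4.09 and 3.57 in tissue. Cdca8, borealin, read -0.09 and 0.54 in astrocytes, 5.13 and 5.33 in glioma cells, 2.33 and 5.46 in neural stem cells and 3.01, 3.14 and 2.79 in tissue. These partners moved alike, by 4.77 ± 1.01 (adjusted p = 0.0331) and 5.0 ± 1.01 (adjusted p = 0.0293). Aurkb, the kinase of the complex, was measured by a single dim probe (chr11:68865105-68865164, mm9) that was well above background on 3 arrays only. It read -6.85 and -7.35 in astrocytes, -4.42 and -3.83 in glioma cells, -6.39 and -3.65 in neural stem cells and -7.46, -7.43 and -7.55 in tissue. Above background were both glioma cell arrays and neural stem cell array 2, the arrays on which the rest of the list was highest. The level in glioma cells was at least 3.15-fold above astrocytes (2.97 ± 0.91, adjusted p = 0.0754).

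Spindle genes gave 6 calls of 7. Hmmr, a spindle assembly factor also known as the hyaluronan-mediated motility receptor, read -0.30 and 0.37 in astrocytes, 3.14 and 2.80 in glioma cells, 1.29 and 2.96 in neural stem cells and 0.81, 1.25 and 1.17 in tissue. Tpx2, which activates Aurora A on the spindle, read -1.42 and -0.58 in astrocytes, 2.99 and 2.93 in glioma cells, 0.39 and 3.16 in neural stem cells and 0.83, 1.09 and 0.85 in tissue. Hmmr showed the smallest difference of the called genes and the smallest gap between the neural stem cell arrays. It rose by 2.93 ± 0.61 (adjusted p = 0.0319), Tpx2 by 3.96 ± 0.92 (adjusted p = 0.0410) and Kif4, a chromosome-arm kinesin, by 4.86 ± 1.02 (adjusted p = 0.0317). Dlgap5, which stabilises kinetochore fibres, read -4.95 and -3.55 in astrocytes, -0.13 and 0.03 in glioma cells, -2.92 and 0.28 in neural stem cells and -2.97, -1.85 and -2.87 in tissue. It missed the threshold (4.20 ± 1.10, adjusted p = 0.0539).

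Cytokinesis genes split evenly, with 3 of 6 called. Prc1, which bundles the central spindle, read 0.18 and 0.92 in astrocytes, 4.75 and 4.25 in glioma cells, 2.42 and 4.92 in neural stem cells and 2.50, 2.12 and 1.87 in tissue. Racgap1, part of the centralspindlin complex, read -0.68 and -0.08 in astrocytes, 3.71 and 3.28 in glioma cells, 0.94 and 3.43 in neural stem cells and 1.39, 1.48 and 1.08 in tissue. Anln, the actin-binding protein anillin, read 0.28 and 1.10 in astrocytes, 3.57 and 3.21 in glioma cells, 0.82 and 3.64 in neural stem cells and 1.34, 2.09 and 0.96 in tissue. For Anln the astrocyte and tissue arrays overlapped, and for the other pair they did not. Prc1 (3.95 ± 0.85, adjusted p = 0.0344) and Racgap1 (3.87 ± 0.84, adjusted p = 0.0347) rose, while Anln did not pass (2.70 ± 0.94, adjusted p = 0.100). Kif20a, a central spindle kinesin, and Ect2, the exchange factor that activates RhoA at the division plane, also stayed just outside. Kif20a read -1.28 and -0.28 in astrocytes, 3.12 and 3.17 in glioma cells, 0.34 and 3.45 in neural stem cells and 0.48, 0.61 and 0.09 in tissue (3.92 ± 1.03, adjusted p = 0.0544). Ect2 read -1.67 and -1.02 in astrocytes, 2.38 and 2.45 in glioma cells, -0.26 and 2.87 in neural stem cells and 0.39, 0.77 and 0.85 in tissue (3.76 ± 1.01, adjusted p = 0.0569).

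The genes of chromosome structure had the largest median difference of the roles, 5.14 (35.1-fold), and 4 of 5 rose. Mki67, the Ki-67 proliferation antigen that coats mitotic chromosomes, read 0.15 and 0.82 in astrocytes, 5.74 and 5.50 in glioma cells, 2.87 and 5.92 in neural stem cells and 2.93, 3.05 and 2.81 in tissue. Ncaph, a condensin I subunit, read -0.14 and 0.29 in astrocytes, 4.22 and 3.94 in glioma cells, 1.70 and 4.73 in neural stem cells and 1.88, 2.22 and 2.25 in tissue. Neural stem cell array 2 exceeded both glioma cell arrays in each gene. The rises were 5.14 ± 0.99 for Mki67 (adjusted p = 0.0262), 4.0 ± 0.98 for Ncaph (adjusted p = 0.0458) and 5.15 ± 1.12 for Top2a, the topoisomerase that untangles sister chromatids (adjusted p = 0.0350). Ncapg, another condensin I subunit, was not well above background in astrocytes and rose by at least 16.8-fold (5.23 ± 1.01, adjusted p = 0.0260). Smc2, the ATPase shared by both condensins, read -0.31 and 0.30 in astrocytes, 3.35 and 3.43 in glioma cells, 0.92 and 3.54 in neural stem cells and 1.32, 1.34 and 1.87 in tissue, and narrowly missed (3.40 ± 0.86, adjusted p = 0.0504).

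**Figure D3:**
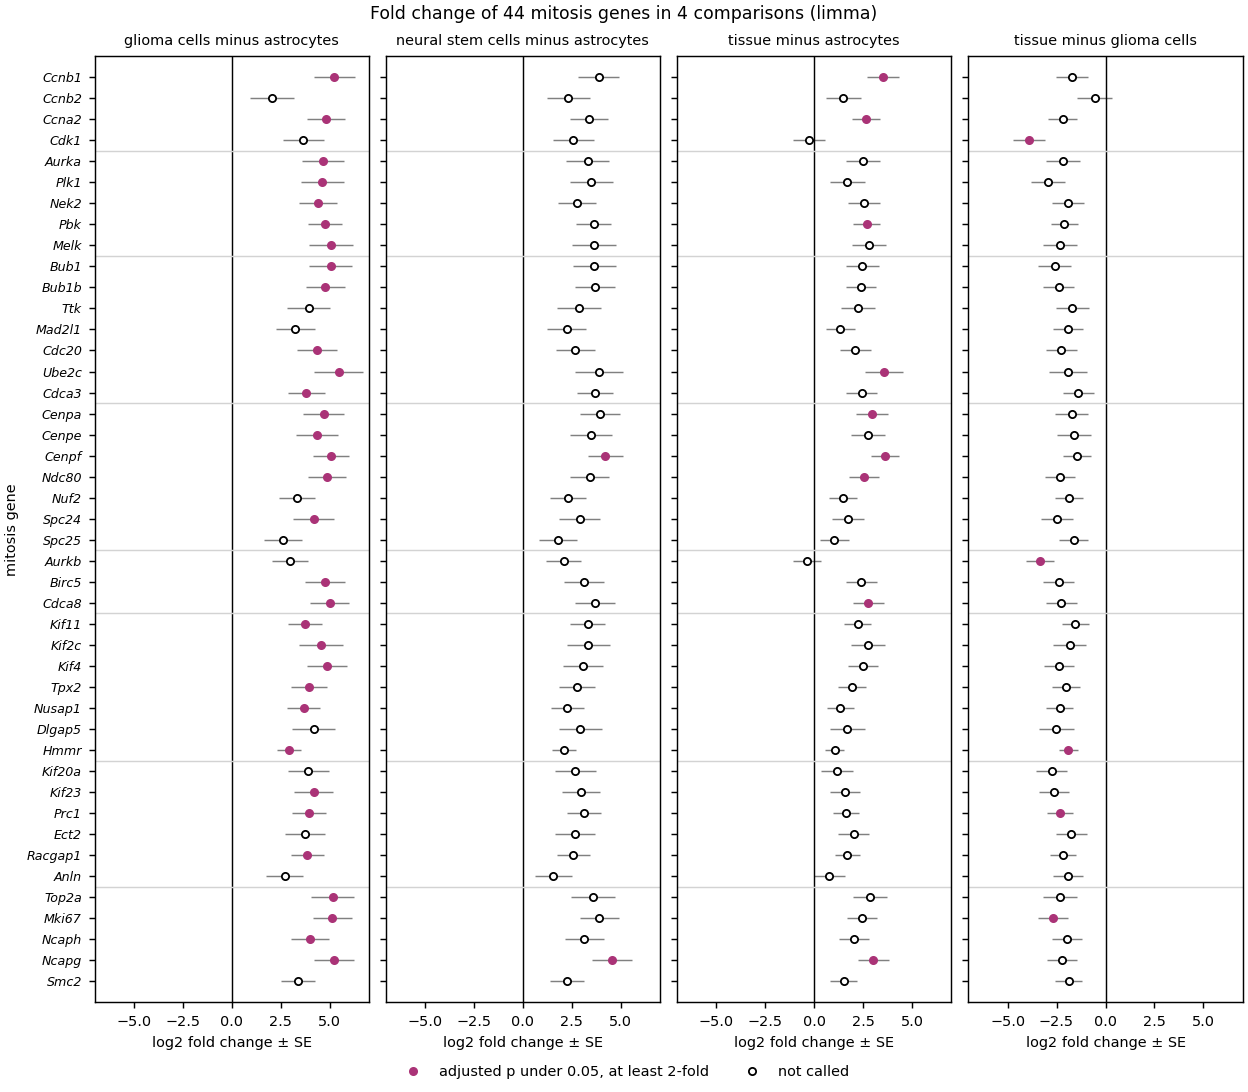
Log2 fold change with its standard error for each of the 44 mitosis genes (rows, by role) in 4 comparisons, from limma; filled points passed an adjusted p of 0.05 and 2-fold, open points did not. Filled points number 32, 2, 9 and 5 from left to right, and Cdk1 and Aurkb are the only genes left of 0 in tissue against astrocytes.

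The neural stem cell arrays differed from each other in every mitosis gene. Array 2 exceeded array 1 for 44 of 44 genes, by a median of 2.95 (7.72-fold), from 1.67 for Hmmr to 3.48 for Ttk, so that all 44 were at least 2-fold apart. Among all genes tested, 56.3% were higher on array 2, 10.5% were at least 2-fold higher, and the median difference was 0.11. Mki67 was 8.28-fold, Top2a 10.8-fold, Cdk1 9.45-fold and Ccnb1 9.10-fold higher on array 2. The other probes of the members ran the same way, with all 63 probes higher on array 2. The astrocyte arrays also differed mostly in 1 direction. Array 2 was higher for 41 genes, with a median difference of 0.80 over the list, and 13 were at least 2-fold higher. Of all genes tested, 48.5% were higher on astrocyte array 2 and 8.36% at least 2-fold higher. In the glioma cells the arrays were even, with 23 genes higher on array 2 and 21 on array 1 and a median of 0.06. The medians between pairs of tissue arrays were 0.13, -0.11 and -0.28.

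**Figure D4:**
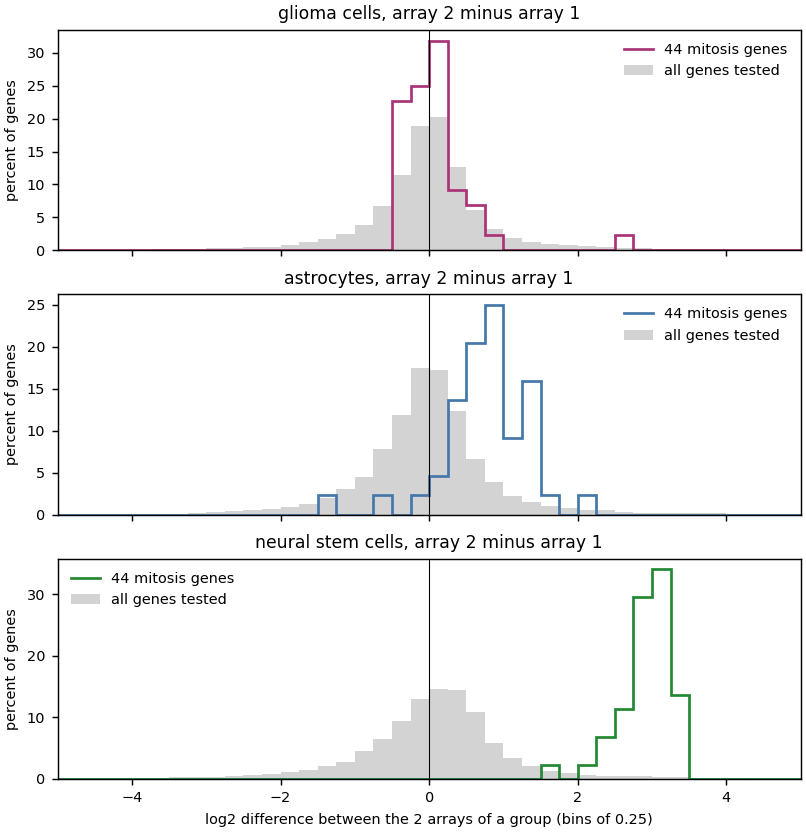
Distribution of the log2 difference between the 2 arrays of a group, as percent of genes in bins of 0.25, for the 44 mitosis genes (coloured outline) and all 25398 genes tested (grey bars; the axis ends at -5 and 5). The mitosis genes centre near 0 in glioma cells, near 0.80 in astrocytes and near 2.95 in neural stem cells, where no mitosis gene lies below 1.67.

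Other lists moved with this gap. DNA replication genes were higher on neural stem cell array 2 for 22 of 22 genes, by a median of 3.19, and 32 further mitosis genes for 31, by a median of 2.89. G1 cyclin, kinase, E2F and Rb genes were higher on array 2 for 14 of 16, by a median of 1.81. Genes of the anaphase-promoting complex core and cohesin, which are expressed throughout the cell cycle, moved less but the same way. Of these, 15 of 17 were higher on array 2, by a median of 0.70, where 56.3% of all genes tested were higher. Astrocyte markers averaged 3.55 on array 1 and 0.31 on array 2, with 0 of 8 higher on array 2, and microglia markers -0.18 and -2.19, with 0 of 10 higher on array 2. Neural stem cell markers averaged 3.62 and 3.40, with 3 of 8 higher on array 2. All 8 were well above background on both arrays. The part of these lists in the gap was not tested.

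**Figure D5:**
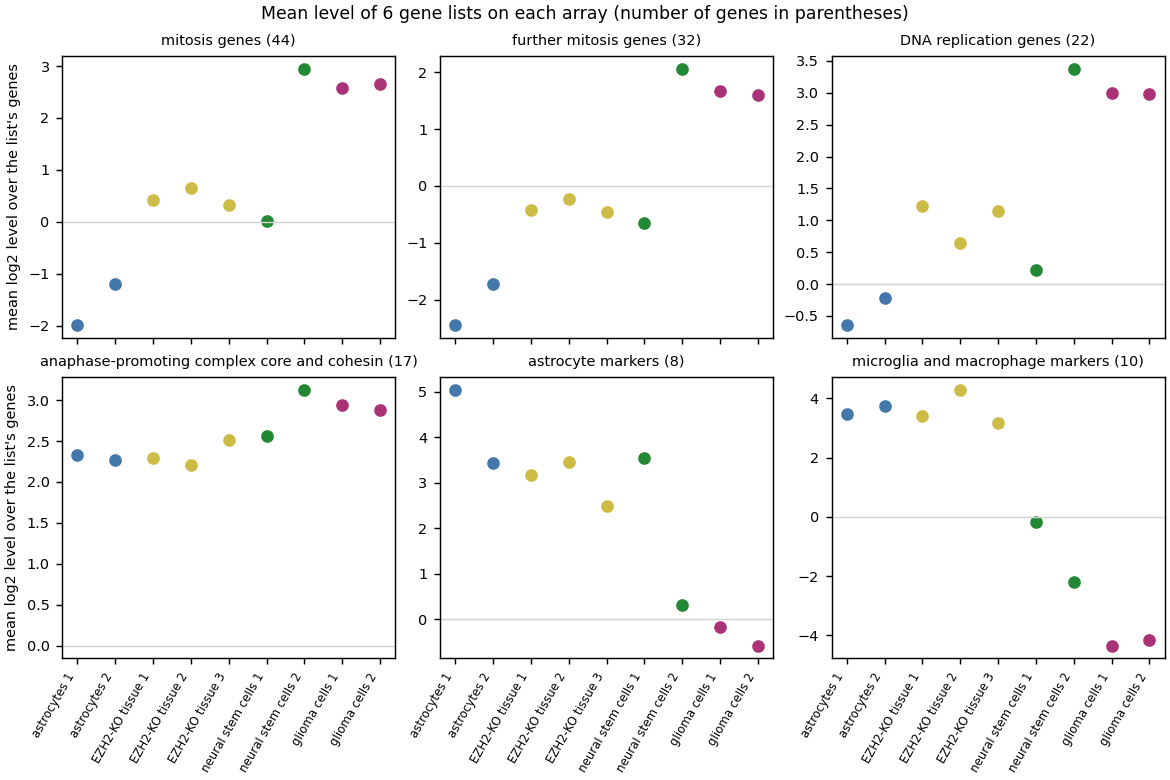
Mean log2 level of 6 gene lists on each of the 9 arrays, coloured by group (blue astrocytes, yellow EZH2-KO tissue, green neural stem cells, purple glioma cells); each panel has its own vertical scale. The replication list repeats the pattern of the mitosis genes, while astrocyte markers run from 3.55 to 0.31 between the neural stem cell arrays.

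The comparison of glioma cells with neural stem cells asks whether tumour cells held more mitotic message than normal cycling precursors. No mitosis gene passed (limma), and none reached an unadjusted p under 0.05, where 0.692% of all genes were called higher and 0.326% lower. The median difference was 1.18 with a median standard error of 1.01, and 43 of 44 genes were above 0, from -0.28 ± 1.12 for Ccnb2 (adjusted p = 0.940) to 1.79 ± 1.02 for Kif4 (adjusted p = 0.513). Arrays did not overlap for 3 genes, all higher in glioma cells, against 20.6% of all genes. The direction rested on neural stem cell array 1. Without that array the median was -0.29 and 7 genes were above 0, and without array 2 it was 2.69 and all 44 were above 0. Missing the threshold does not show that the groups hold equal levels.

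Neural stem cells and astrocytes also differed in marker lists. Microglia and macrophage markers were called lower in neural stem cells for 9 of 10 (limma), where 7.79% of all genes were. Oligodendrocyte precursor markers were called higher for 6 of 7, neural stem cell markers for 3 of 8, and astrocyte markers for 0 of 8 in either direction. The part of these lists in the result below was not tested. This comparison gave 2 called mitosis genes of 44, with 7.20% of all genes called higher. These were Cenpf, with a mean higher by at least 7.66-fold (4.21 ± 0.91, limma, adjusted p = 0.0395), and Ncapg, by at least 10.5-fold (4.55 ± 1.01, adjusted p = 0.0421). Each bound is for the mean of the 2 neural stem cell arrays. It need not hold for array 1 alone, the lower of the 2, which read -3.99 for Cenpf and -3.83 for Ncapg. Ncapg read -6.28 and -7.59 in astrocytes, -3.83 and -0.94 in neural stem cells, -1.75 and -1.67 in glioma cells and -4.22, -3.99 and -3.58 in tissue, and like Cenpf it was not well above background in astrocytes. The small count stands beside a wide shift. The median difference was 3.13 (8.74-fold), 37 genes had an unadjusted p under 0.05, and arrays did not overlap for 42 genes, against 40.8% of all genes. The exceptions were Anln and Spc25, each with neural stem cell array 1 between the astrocyte arrays; Anln had the smallest difference, 1.54 ± 0.94 (adjusted p = 0.294). Without neural stem cell array 1 the median was 4.65 and 41 genes were called. Without array 2 it was 1.61 and none was called by limma, with 25 at an unadjusted p under 0.05. The fit over all 9 arrays called 28, and leaving out any 1 glioma cell or astrocyte array left none, with 5 to 30 at an unadjusted p under 0.05.

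The EZH2-KO tissue held less mitotic message than the glioma cells. All 44 genes were lower, by a median of 2.17 on the log2 scale (4.51-fold), against a median of -0.20 for all genes, and arrays did not overlap for 43, against 35.3% of all genes. The test called 5 lower, where 10.0% of all genes were called lower (limma, 25398 genes). Cdk1 fell by 3.92 ± 0.82 (adjusted p = 0.0175), Mki67 by 2.69 ± 0.77 (adjusted p = 0.0482), Prc1 by 2.34 ± 0.67 (adjusted p = 0.0499) and Hmmr by 1.89 ± 0.49 (adjusted p = 0.0360). Aurkb, not well above background in tissue, was at least 4.01-fold lower (-3.35 ± 0.70, adjusted p = 0.0179). Kif23, the kinesin of centralspindlin, lay just outside with -2.63 ± 0.76 (adjusted p = 0.050). The gene with the least difference was Ccnb2 (-0.55 ± 0.88, adjusted p = 0.687), the one gene whose arrays overlapped, because glioma cell array 1 read below all 3 tissue arrays. Without either neural stem cell array 38 genes were called, and without either glioma cell array none was, with 7 and 10 at an unadjusted p under 0.05, while the median stayed between -2.25 and -2.06. Leaving out 1 tissue or astrocyte array left 1 to 3. Microglia markers moved the other way, with 9 of 10 called higher in tissue and 5 of 10 well above background on neither glioma cell array. Of all genes tested, 7.65% were called higher in tissue. Astrocyte markers were called higher in tissue for 5 of 8 genes (median 4.54), endothelial markers for 2 of 4 (median 4.46), mature oligodendrocyte markers for 1 of 5 (median 3.14) and neuron markers for 1 of 5 (median 2.76). The part of these lists in the result was not tested.

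Against astrocytes, 42 of 44 mitosis genes were higher in the tissue, by a median of 2.23 (4.70-fold), and 41 did not overlap, where 27.1% of all genes were higher without overlap. The test called 9 higher, where 10.5% of all genes were called higher. They were Ccnb1 (3.52 ± 0.81, adjusted p = 0.0199), Ccna2 (2.64 ± 0.74, adjusted p = 0.0371), Pbk (2.68 ± 0.68, adjusted p = 0.0276), Ube2c (3.55 ± 0.96, adjusted p = 0.0340), the centromeric histone Cenpa (2.96 ± 0.82, adjusted p = 0.0368), Cenpf (3.62 ± 0.72, at least 5.08-fold, adjusted p = 0.0120), Ndc80 (2.53 ± 0.76, adjusted p = 0.0479), Cdca8 (2.76 ± 0.79, adjusted p = 0.0402) and Ncapg (3.0 ± 0.79, at least 3.61-fold, adjusted p = 0.0308). None of the 7 spindle genes and none of the 6 cytokinesis genes passed, with 4 and 3 of them at an unadjusted p under 0.05. Anln, with overlapping arrays, differed by 0.78 ± 0.78 (adjusted p = 0.493). Without either neural stem cell array 35 genes were called, without astrocyte array 1 none was (6 at an unadjusted p under 0.05), and without any other array 1 to 4 were called. Of the marker lists, oligodendrocyte precursor markers were called higher in tissue for 7 of 7 genes, mature oligodendrocyte markers for 3 of 5 and neuron markers for 3 of 5. The share called lower was 12.5% of all genes. Fibroblast and smooth muscle markers were called lower for 3 of 6, astrocyte markers for 2 of 8 and microglia markers for none of 10 in either direction (limma). The part of these lists in the result was not tested.

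Cdk1 and Aurkb were the 2 genes not higher in the tissue than in astrocytes. For Cdk1 the difference was -0.26 ± 0.82 (adjusted p = 0.839), and the tissue values of -0.87, -1.09 and -1.03 lay between the astrocyte values. The 3 probes of Cdk1 differed. The one used here, the brightest (chr10:68801072-68801131, mm9), and a dim neighbour that overlaps it (chr10:68801053-68801112) both read lower in tissue than in glioma cells. The neighbour was well above background on 4 arrays only, so no fold is given for it. The third probe (chr10:68799513-68799572), well above background on all 9 arrays, read -3.36, -3.28 and -3.81 in tissue, -2.86 and -3.22 in glioma cells, -5.18 and -4.81 in astrocytes and -4.70 and -2.40 in neural stem cells. There the tissue differed by 1.51 from astrocytes and by -0.45 from glioma cells. Whether the probes report different transcripts was not tested. For Aurkb all 3 tissue arrays read below both astrocyte arrays, as 30.9% of all genes did, but neither group was well above background and no fold is given.

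The tissue against neural stem cells gave a median of -0.87 and 44 of 44 genes below 0 (-0.33 with 3 genes above 0 in the authors' table), but only 3 genes without overlap, against 34.2% of all genes. The test called 2 lower, where 10.7% of all genes were called lower. Cdk1 differed by -2.84 ± 0.82 (adjusted p = 0.0476), and Aurkb by -2.46 ± 0.70 (adjusted p = 0.0467), with no bound on its fold because neither the tissue arrays nor neural stem cell array 1 were well above background. The third Cdk1 probe did not show this difference. It read -3.36, -3.28 and -3.81 in tissue, between the neural stem cell values of -4.70 and -2.40. The other genes ranged up to -0.24 ± 0.83 for Nek2 (adjusted p = 0.860). Here too the neural stem cell arrays set the answer. Without array 1 the median was -2.35 and 38 genes were called lower. Without array 2 it was 0.54, 37 genes were above 0 and none was called, with 7 at an unadjusted p under 0.05. Leaving out any 1 of the other arrays also left none called, with 2 at an unadjusted p under 0.05.

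Members with several probes mostly agreed. Of the 44, 30 had 1 probe and 14 had 33 between them. All 63 probes read higher in glioma cells than in astrocytes and lower in tissue than in glioma cells, and 60 read higher in tissue than in astrocytes. Nuf2 was irregular beyond its brightest probe. Its second probe (chr1:171440451-171440510, mm9) read -1.16, -5.94 and -6.46 in tissue, 0.85 and -0.05 in glioma cells, -5.04 and -4.48 in astrocytes and -7.91 and -4.30 in neural stem cells. Tissue array 1 thus stood far above the other tissue arrays at that probe, while the brightest Nuf2 probe read -0.50, -0.59 and -0.56 there.

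Genes around the list in the cell cycle were counted on lists chosen, like the members, with earlier results of these data known. In glioma cells over astrocytes 9.82% of all genes were called higher and 9.70% lower, and the counts of 3 in 22 replication genes and 1 in 17 core and cohesin genes given next lie near that share. Among 32 further mitosis genes, 18 rose in glioma cells over astrocytes (median 3.93). Kif15, a spindle kinesin, was higher by 5.54 ± 0.95 (adjusted p = 0.0192). Of 22 DNA replication genes 3 rose, with a median of 3.46, among them the helicase subunit Mcm5 (4.83 ± 1.22, adjusted p = 0.0499) and the licensing inhibitor Gmnn (4.46 ± 0.99, adjusted p = 0.0369). Of 15 G1 cyclin, kinase, E2F and Rb genes 4 rose, led by E2f8 (5.50 ± 0.97, adjusted p = 0.0209) and E2f7 (5.18 ± 1.20, adjusted p = 0.0407), which are repressor E2Fs that switch on late in the cycle. Of 12 DREAM and NF-Y genes 3 rose, with Lin37 at 3.88 ± 0.31 (adjusted p = 0.00336) and Lin9 at 2.93 ± 0.39 (adjusted p = 0.0102). Of 17 anaphase-promoting complex core and cohesin genes the cohesin subunit Rad21 alone passed (2.08 ± 0.47, adjusted p = 0.0396), and the list's median was 0.64. Among 7 CDK inhibitors Cdkn2b, which blocks Cdk4 and Cdk6, fell by 3.85 ± 0.86 (adjusted p = 0.0372) and none rose.

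In neural stem cells over astrocytes, where 7.20% of all genes were called higher and 7.79% lower, the further mitosis genes gave 5 higher (median 2.91), with Kif15 at 4.30 ± 0.95 (adjusted p = 0.0416) and the phosphatase Cdc25c at 4.06 ± 0.95 (adjusted p = 0.0484). No replication gene was called (limma, median 2.06; Gmnn differed by 3.53 ± 0.99, adjusted p = 0.0694). The G1 list gave E2f8 (4.16 ± 0.97, adjusted p = 0.0475) and Cdk4 (1.84 ± 0.30, adjusted p = 0.0207) higher and the pocket protein Rbl2 lower (-1.98 ± 0.39, adjusted p = 0.0330). Lin9 rose by 2.35 ± 0.39 (adjusted p = 0.0220), and no core or cohesin gene was called, the largest difference being 1.28 ± 0.47 for Rad21 (adjusted p = 0.121). The inhibitors Cdkn2a and Cdkn2b fell by 4.76 ± 0.85 (adjusted p = 0.0260) and 3.62 ± 0.86 (adjusted p = 0.0494). In glioma cells against neural stem cells Lin37 alone of these lists passed (3.84 ± 0.31, adjusted p = 0.0248). The largest differences elsewhere were 1.75 for Ncapg2, 1.83 for Cdc6, -4.39 for Ccnd2, 5.70 for Cdkn2a and 0.80 for Rad21, with adjusted p between 0.0626 and 0.612. Ccnd2 read -3.46 and 4.02 on the glioma cell arrays, and its difference was -0.65 without array 1.

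In tissue against glioma cells, where 10.0% of all genes were called lower, the further mitosis genes had a median of -1.93 and 3 lower, with Gtse1, a G2 regulator of p53, at -5.25 ± 1.23 (adjusted p = 0.0264) and Kif15 at -2.70 ± 0.76 (adjusted p = 0.0459). Of the replication genes (median -1.97) Rfc4 (-2.34 ± 0.67, adjusted p = 0.0478) and Tyms (-1.85 ± 0.51, adjusted p = 0.0435) fell. So did Rbl1 (-1.99 ± 0.53, adjusted p = 0.0394) and E2f3 (-1.50 ± 0.34, adjusted p = 0.0232) of the G1 list. The DREAM and NF-Y list gave 3 lower, among them E2f4 (-2.69 ± 0.42, adjusted p = 0.00612) and Lin9 (-1.39 ± 0.35, adjusted p = 0.0345). Rad21 (-1.55 ± 0.38, adjusted p = 0.0291) and Anapc1 (-1.42 ± 0.37, adjusted p = 0.0357) fell, and no inhibitor passed (Cdkn2b, 2.29 ± 0.84, adjusted p = 0.0959). The counts of 3 in 32 further mitosis genes, 2 in 22 replication genes, 2 in 15 G1 genes and 2 in 17 core and cohesin genes lie near the share of 10.0%. In tissue against astrocytes, 10.5% of all genes were called higher and 12.5% lower. There 11 of 32 further mitosis genes rose, led by Cdc25c (3.65 ± 0.79, adjusted p = 0.0158) and Aspm (3.09 ± 0.77, adjusted p = 0.0255), and Gtse1 fell by 4.30 ± 1.23 (adjusted p = 0.0408). No replication gene passed (median 1.57; Mcm5, 2.84 ± 0.97, adjusted p = 0.0693). E2f8 rose by 3.40 ± 0.75 (adjusted p = 0.0170) and Rb1 fell by 1.13 ± 0.33 (adjusted p = 0.0439). Lin37 (3.91 ± 0.88, adjusted p = 0.0182) and Lin9 (1.54 ± 0.35, adjusted p = 0.0197) rose and E2f4 fell by 1.82 ± 0.42 (adjusted p = 0.0199). Neither an inhibitor (Cdkn1a, -3.43 ± 1.08, adjusted p = 0.0546) nor a core or cohesin gene (Rad21, 0.52 ± 0.38, adjusted p = 0.336) passed. In tissue against neural stem cells, 7.91% of all genes were called higher and 10.7% lower. There Gtse1 (-4.39 ± 1.23, adjusted p = 0.0438), E2f3 (-1.34 ± 0.34, adjusted p = 0.0312) and E2f4 (-2.49 ± 0.42, adjusted p = 0.00798) fell. Cdkn2a (4.65 ± 0.75, adjusted p = 0.00684) and Lin37 (3.86 ± 0.88, adjusted p = 0.0225) rose, and neither a replication gene (Cdc6, -1.62 ± 1.03, adjusted p = 0.297) nor Anapc1 (-1.26 ± 0.37, adjusted p = 0.0504) passed.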

How the data were processed

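RNA of 9 samples in 4 groups was measured on 9 one-colour Agilent arrays. The deposited scanner files hold the processed intensity of each spot, background-subtracted by Agilent Feature Extraction (10.7.3.1, per the submitters' processing notes; per the file headers 10.7.3.1 for tissue and 10.7.1.1 for cells, with mm9 probe positions). The authors also deposited a table of log2 values of the same arrays, used as an alternative.

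Here log2 intensity minus each array's 75th percentile over non-control spots was taken, without spots that the scanner software marked as outliers, and spots of a probe were averaged. Probes entered a test where some group had them well above background on all its arrays, and the brightest such probe stood for its gene. Groups were compared with limma 3.58.1 (R 4.3.3; lmFit and eBayes) on 6 arrays for cells against cells and on 9 where tissue entered. Benjamini-Hochberg adjustment ran over all genes tested, and a gene was called at an adjusted p under 0.05 and at least 2-fold. The script was tested on simulated data. The number of arrays limits the precision. Alternatives covered scaling, background correction, the filter, the probe rule, the arrays fitted, the replicate number as a block and each array left out. Values on every array are given for the members of each role with the highest mean signal and for those not called or moving against the rest. Pathway genes are named by the largest called changes, or the largest change where none was called. One gene that this rule names is not reported here. The members and lists were chosen with earlier results of these data known. Promoters came from RefSeq and no genome sequence was used.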

Additional observations from a re-analysis of the deposited data

How the results depend on the processing

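Called mitosis genes moved as follows from the counts in the text. For glioma cells against astrocytes 32 became 19 with no filter on dim probes, 41 with all 9 arrays and 43 with only the groups compared. For neural stem cells against astrocytes 2 became 1 with quantile scaling or a stricter filter, 0 with no filter or with only the groups compared (limma; 38 and 30 at an unadjusted p under 0.05), and 28 with all 9 arrays. For tissue against glioma cells 5 became 2 with quantile scaling or in the authors' table, 3 with no filter and 42 with only the groups compared. For tissue against neural stem cells 2 became 1 with normexp background correction, a stricter filter or the mean of a gene's probes, and 0 in the authors' table, with no filter or with only the groups compared (limma; 2, 2 and 1 at an unadjusted p under 0.05). For tissue against astrocytes 9 became 7 with no filter, 13 with quantile scaling, 22 in the authors' table, 14 with a stricter filter and 34 with only the groups compared. The median difference moved from 4.27 to 3.80 (authors' table) and 3.64 (normexp) for glioma cells against astrocytes, from -2.17 to -1.84 (quantile), -1.59 (authors' table) and -1.93 (normexp) for tissue against glioma cells, from 2.23 to 1.68 (normexp) for tissue against astrocytes, and from -0.87 to -0.33 (authors' table) for tissue against neural stem cells. For neural stem cells against astrocytes it moved from 3.13 to 2.69 (authors' table) and 2.42 (normexp). The authors' table moved the median of all genes from 0.19 to -0.29, from 0.24 to -0.19, from -0.20 to 0.38 and from -0.25 to 0.29 in glioma cells against astrocytes, neural stem cells against astrocytes, tissue against glioma cells and tissue against neural stem cells. The cause was not tested.

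With 1 array left out, calls ranged from 0 to 43 and medians from 3.83 to 4.86 for glioma cells against astrocytes, 0 and -0.29 to 2.69 for glioma cells against neural stem cells, 0 to 41 and 1.61 to 4.65 for neural stem cells against astrocytes, 0 to 38 and -2.25 to -2.06 for tissue against glioma cells, 0 to 38 and -2.35 to 0.54 for tissue against neural stem cells, and 0 to 35 and 1.88 to 2.40 for tissue against astrocytes. A group left with 1 array was assumed to vary like the others. Over the named genes and all settings with 1 array left out, 462 values kept their direction and side of the threshold, 360 lost a call, 34 gained one and 8 changed sign; under the other alternatives these counts were 799, 137, 50 and 2. Among the genes named for a comparison, Ccnb2, Cdc6, Cdk1 and Nek2 changed sign. Over all 44 members far more did so where a neural stem cell array was left out: 37 stood above 0 in tissue against neural stem cells without array 2, and 7 in glioma cells against neural stem cells without array 1. Ccnb2 in tissue against glioma cells read 0.0301 in the authors' table and -1.87 to 0.76 with 1 array left out, and in glioma cells against neural stem cells -1.60 to 1.03. Cdc6 ranged from -3.74 to 0.50 in tissue against neural stem cells and from -0.29 to 3.95 in glioma cells against neural stem cells. Cdk1 in tissue against astrocytes ranged from -0.65 to 0.13. Nek2 in tissue against neural stem cells read 0.30 in the authors' table and ranged from -1.63 to 1.15.

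The labels do not say whether the replicate numbers pair the samples. Same-numbered arrays deviated together with correlations of -0.092 to 0.12, above 0.1 for astrocytes with neural stem cells only. Each correlation rests on 1 array difference per group, so it cannot decide whether samples are paired. With the number as a replicate block, calls were 35 for glioma cells against astrocytes and 6 for neural stem cells against astrocytes. They were 4 for tissue against astrocytes, and 0 for tissue against glioma cells and against neural stem cells (limma, with 28 and 2 at an unadjusted p under 0.05). A slide or scan block was not run, because slides hold separate groups. Dim probes such as that of Aurkb limit what can be read near background.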
